A study of Mus musculus with 16 samples.

Results

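The comparison described here sets mouse forebrain neurons that received a short hairpin RNA carrying 2 point mutations (shRNA_2bp) against neurons that received the unmutated hairpin (shRNA). A short hairpin RNA is a designed stem-loop that cells cut into a small RNA, as they cut the precursors of their own microRNAs (miRNAs), and it is used to silence a chosen gene. Both groups were primary cultures of perinatal forebrain neurons transduced with a lentiviral vector, and each has 4 libraries of small RNA. The members are all mature miRNAs with enough counts, which were 483 of the 1978 miRNAs named in the deposited table. The other 1495 names were not tested, and 611 of those had no count in any of the 16 libraries of the series. The remaining 8 libraries received an empty vector (Empty_Vector) or the hairpin with 5 point mutations (shRNA_5bp), and their levels are given beside some results with no test. The labels name neither the hairpin's target nor the mutated positions, and give no strain, age in days, promoter or time after transduction. Whether the 4 replicates of each group were grown as separate cultures, or taken from separate animals, is not stated, so the p-values measure the spread between these libraries, which may be technical.

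MiRNAs are made from hairpin transcripts that Drosha and its partner DGCR8, together called the Microprocessor, trim in the nucleus, and that Dicer then cuts into a duplex of a 5p and a 3p arm. One arm is usually kept by an Argonaute protein, and its bases 2 to 8, the seed, pair with target messenger RNAs and lower their output. A vector-made hairpin enters this pathway downstream of or at the Microprocessor, depending on its design, and shares export, Dicer and Argonaute proteins with the cell's own miRNAs.

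The miRNAs on which the results turn are shown first, as RefSeq gives them on GRCm38.p6, from 5′ to 3′ with the seed in capitals. The first set holds the miRNAs with the strongest falls at high level and the abundant miR-128-3p, and it includes miR-7a-5p and miR-7b-5p, which share 1 seed.
miR-7a-5p: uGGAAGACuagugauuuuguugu
miR-7b-5p: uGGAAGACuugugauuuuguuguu
miR-760-3p: cGGCUCUGggucugugggga
miR-770-5p: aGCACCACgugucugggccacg
miR-770-3p: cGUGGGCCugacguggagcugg
miR-543-3p: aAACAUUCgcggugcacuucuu
miR-495-3p: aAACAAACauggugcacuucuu
miR-128-3p: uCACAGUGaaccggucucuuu
The second set holds 2 of the miRNAs made without the Microprocessor, from a list whose tested members all fell.
miR-1224-5p: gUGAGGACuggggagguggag
miR-877-5p: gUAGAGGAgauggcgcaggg
The third set holds miRNAs that were higher with shRNA_2bp. It includes the 3 tested miRNAs of the miR-99 seed, and miR-3473b and miR-3473e, which share a seed and most of their length.
miR-3473b: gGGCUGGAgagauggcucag
miR-3473e: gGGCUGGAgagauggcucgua
miR-378c: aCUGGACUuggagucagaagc
miR-99a-5p: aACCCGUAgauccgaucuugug
miR-100-5p: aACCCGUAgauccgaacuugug
miR-99b-5p: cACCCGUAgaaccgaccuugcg
The last set shows 2 members of the miR-376 family whose seeds are not the same, miR-376b-3p, which rose, and miR-376a-3p, which did not pass the test, with both arms of miR-335.
miR-376b-3p: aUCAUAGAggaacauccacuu
miR-376a-3p: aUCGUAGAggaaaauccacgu
miR-335-5p: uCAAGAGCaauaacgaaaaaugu
miR-335-3p: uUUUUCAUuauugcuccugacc

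Depth differed between the groups. The shRNA libraries held 5.30 to 8.06 M counts (M being the prefix mega) and the shRNA_2bp libraries 1.18 to 2.10 M, without overlap (exact two-sided permutation p = 0.0286, adjusted p = 0.0286 over 2 tests, the smallest p that 4 against 4 allows). At least 1 count was seen for 930 to 1009 names with shRNA and for 696 to 792 with shRNA_2bp. In each library at least 99.9% of the counts fell on tested miRNAs. Levels below are counts per M (CPM) of library size after scaling by the trimmed mean of M values, with the standard deviation (SD) over 4 libraries, so they are relative to all other miRNAs of a library. Fewer cells of a type and less RNA per cell cannot be told apart in such bulk cultures.

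Most miRNAs differed between the hairpins. Of the 483 tested miRNAs, 312 (64.6%) passed edgeR's quasi-likelihood test at a Benjamini-Hochberg adjusted p below 0.05, which is the rule behind "rose" and "fell" throughout. Of these, 150 rose with shRNA_2bp (31.1% of those tested) and 162 fell (33.5%), and 171 did not pass. Changes of more than 2-fold were seen in 51 rises and 87 falls. The 4 libraries of one group all lay above the 4 of the other for 282 miRNAs (58.4%), of which 275 had passed the test. The median log2 fold change of all tested miRNAs was -0.01. The miRNAs that rose held on average 29.8% of the counts with shRNA and 45.8% with shRNA_2bp, while those that fell went from 52.5% to 35.9%. The shares of 31.1% and 33.5% are the background for the counts of every list below, and a count near them is no result about the list. The lists were chosen with earlier results of these data known, so their counts describe these libraries and are no independent test.

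**Figure D1:**
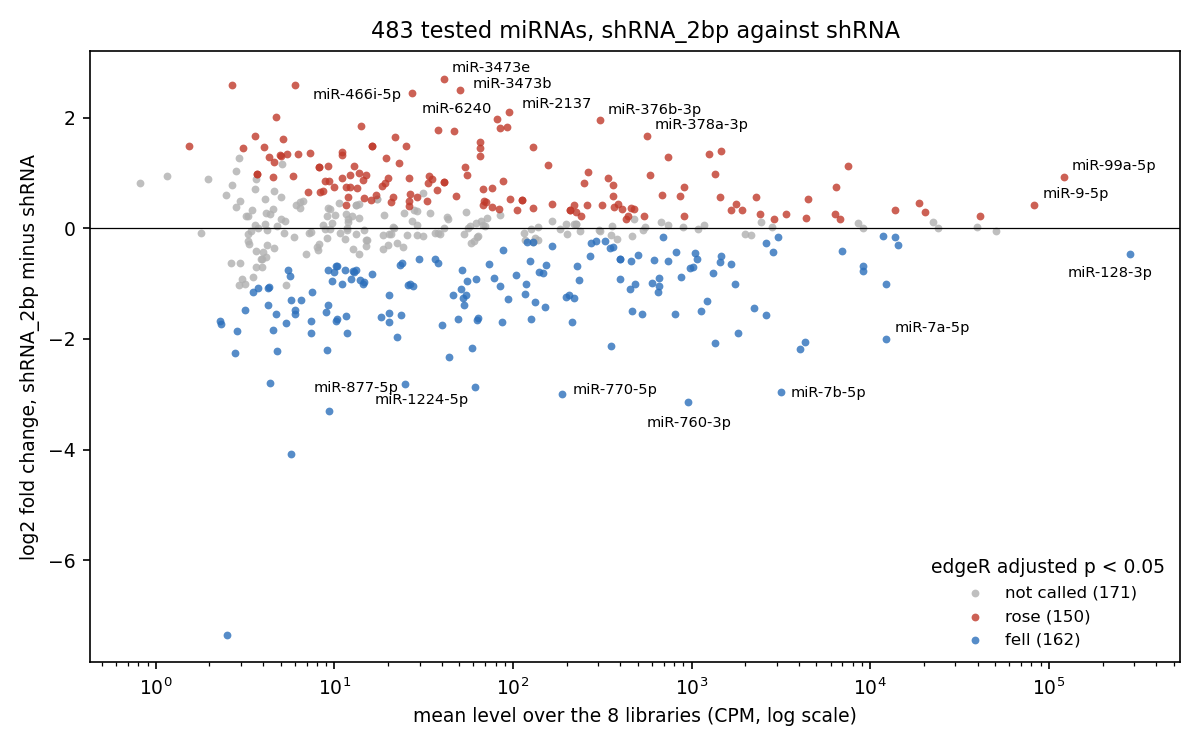
Each point is 1 of the 483 tested miRNAs, with its mean level over the 8 libraries in CPM (log axis) and its log2 fold change, shRNA_2bp minus shRNA; red marks the 150 that rose, blue the 162 that fell and grey the 171 not called. Calls are found at all levels, from miRNAs near 1 CPM to miR-128-3p and miR-99a-5p at the right edge. The lowest point is miR-6945-3p, whose fitted value rests on libraries with no count.

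The 5p arms of the miR-7 family were among the 12 largest falls. MiR-7 is enriched in neurons and neuroendocrine cells, where the circular RNA Cdr1as carries many sites for it. MiR-7b-5p (chr17:56243017-56243040, GRCm38.p6, no annotated host gene on its strand) was measured at 5499, 5597, 5863 and 5438 CPM with shRNA and at 729, 703, 791 and 639 CPM with shRNA_2bp. Every shRNA library was thus far above every shRNA_2bp library, and miR-7b-5p fell by 2.97 (SE 0.07) on the log2 scale, or 7.82-fold (adjusted p = 7.88e-25). MiR-7a-5p is made from 2 loci, one of them in an intron of Hnrnpk (chr13:58392841-58392863), and was measured at 18969.6, 19746, 20912 and 18814 CPM with shRNA and 5055, 4594, 5094 and 4916 CPM with shRNA_2bp. It fell by 2.00 (SE 0.06), or 3.99-fold (adjusted p = 3.09e-21), again with no overlap between the groups. The empty-vector libraries held 1377 ± 89.2 CPM of miR-7b-5p and 6735 ± 658 CPM of miR-7a-5p, so for both the empty-vector level lay between the lower shRNA_2bp level and the higher shRNA level. With shRNA_5bp the levels were 3718 ± 176 CPM of miR-7b-5p and 25828 ± 982 CPM of miR-7a-5p.

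The opposite arms of miR-7 did not follow the 5p arms. MiR-7a-1-3p, from the Hnrnpk locus, rose from 18.4 ± 2.11 to 34.4 ± 4.13 CPM (SD, n = 4; log2 fold change 0.91 ± 0.18, ± standard error, SE; adjusted p = 8.87e-05). MiR-7a-2-3p, from the other locus, did not pass (log2 fold change -0.27, adjusted p = 0.0746). Of the 5 listed names of the family 4 were tested, and 1 rose and 2 fell, with a median of -1.13 against -0.01 for all miRNAs. Summed over all its listed names, and taken as CPM of the library total without the trimmed-mean scaling (as are all sums over a list below), the family held 23762 to 26717 CPM with shRNA and 5681 to 6002 CPM with shRNA_2bp.

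The largest fall among all named miRNAs was that of miR-760-3p (chr3:122293615-122293634, in an exon of the noncoding gene Gm17494). Its level was 1774, 1848, 1696 and 1535 CPM with shRNA and 183, 218, 194 and 178 CPM with shRNA_2bp. The groups lay far apart, and the fall was 3.14 (SE 0.08) on the log2 scale, or 8.83-fold (adjusted p = 1.07e-23). MiR-770, which lies in an exon of the imprinted noncoding gene Meg3 (5p arm at chr12:109563710-109563731, 3p arm at chr12:109563744-109563765), fell in both arms. Its 5p arm was at 343, 348, 345 and 306 CPM with shRNA and 41.3, 44.8, 48.3 and 32.7 CPM with shRNA_2bp, a fall of 2.99 (SE 0.11) (adjusted p = 9.63e-20). Its 3p arm, the more abundant, was at 7101, 6987, 6641 and 5867 CPM and 1452, 1507, 1549 and 1326 CPM, a fall of 2.19 (SE 0.07) (adjusted p = 5.64e-21). In all 3 the lowest shRNA library was more than 3-fold above the highest shRNA_2bp library.

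The remaining places among the 12 largest falls went to 2 miRNAs made without the Microprocessor (miR-1224-5p and miR-877-5p), to miR-344f-3p of the imprinted chromosome 7 region, and to 4 further miRNAs of the Dlk1-Dio3 region. MiR-344f-3p (chr7:62046183-62046203) was at 67, 80.8, 75.5 and 70.8 CPM with shRNA and 13.2, 15.8, 14.9 and 13.9 CPM with shRNA_2bp, and fell by 2.33 (SE 0.15) (adjusted p = 8.08e-14). With shRNA_5bp miR-344f-3p was at 76.8 ± 12.4 CPM, within the range of the shRNA libraries, and with the empty vector at 47.8 ± 4.44 CPM. The Dlk1-Dio3 miRNAs are miR-431-3p, miR-666-5p, miR-495-3p and miR-543-3p and are described with their region.

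Among the 12 largest rises, 2 were abundant enough for precise values, miR-376b-3p and miR-378a-3p. MiR-376b-3p (chr12:109723508-109723528) was at 119.8, 123, 115 and 145 CPM with shRNA and 474, 503, 444 and 526 CPM with shRNA_2bp. The lowest shRNA_2bp library was about 3-fold above the highest shRNA library, and miR-376b-3p rose 3.87-fold (log2 fold change 1.95 ± 0.08, adjusted p = 3.63e-18). MiR-378a-3p, linked to mitochondrial metabolism and encoded within the gene of the coactivator PGC-1beta, was at 267, 276, 248 and 279.6 CPM with shRNA and 807, 931, 883 and 801 CPM with shRNA_2bp. It rose 3.2-fold (1.68 ± 0.07, adjusted p = 7.77e-18), with 310.4 ± 25.1 CPM in the empty-vector and 323 ± 23.6 CPM in the shRNA_5bp libraries, both near the shRNA level. Its relative miR-378c (chr14:46954905-46954925) went from 40.6 ± 3.92 to 145 ± 3.32 CPM (log2 fold change 1.83 ± 0.11, adjusted p = 1.87e-14), and was at 43.6 ± 7.25 CPM with shRNA_5bp. Reads of such related miRNAs can be assigned to either name where they match both.

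The other 9 of the 12 largest rises were at low levels, with means of 6.03 to 37.5 CPM with shRNA and 22.2 to 154 CPM with shRNA_2bp. MiR-3473e (chr5:31667296-31667316, in an intron of Rbks) had the largest rise, from 10.8, 11, 9.81 and 11.4 CPM with shRNA to 76.6, 57, 60.3 and 90.8 CPM with shRNA_2bp (log2 fold change 2.71 ± 0.22, adjusted p = 1.46e-10). MiR-3473b (chr10:41670774-41670793) went from 15.1 ± 1.42 to 86.2 ± 20.0 CPM (2.50 ± 0.21) and miR-3473a (chrX:162874920-162874937, in an intron of Syap1) from 17 ± 3.42 to 59.2 ± 8.64 CPM (1.78 ± 0.17). These 3 share most of their bases, so reads of one can count for another. MiR-466i-5p rose from 7.95, 8.76, 6.48 and 11.1 CPM to 40.1, 68.8, 39 and 36.8 CPM (2.45 ± 0.27, adjusted p = 4.04e-08), and its second shRNA_2bp library stood above the other 3. MiR-2137 (2.11 ± 0.19), miR-6240 (1.98 ± 0.18), miR-5128 (1.85 ± 0.30), miR-690 (1.81 ± 0.26) and miR-5126 (1.77 ± 0.25) rose without overlap as well. With shRNA_5bp, miR-690 was at 887 ± 306 CPM against 132 ± 15.3 CPM with shRNA_2bp and 37.5 ± 5.9 CPM with shRNA, and miR-6240 at 383 ± 101 CPM against 129.8 ± 11.4 and 32.8 ± 4.03 CPM.

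**Figure D2:**
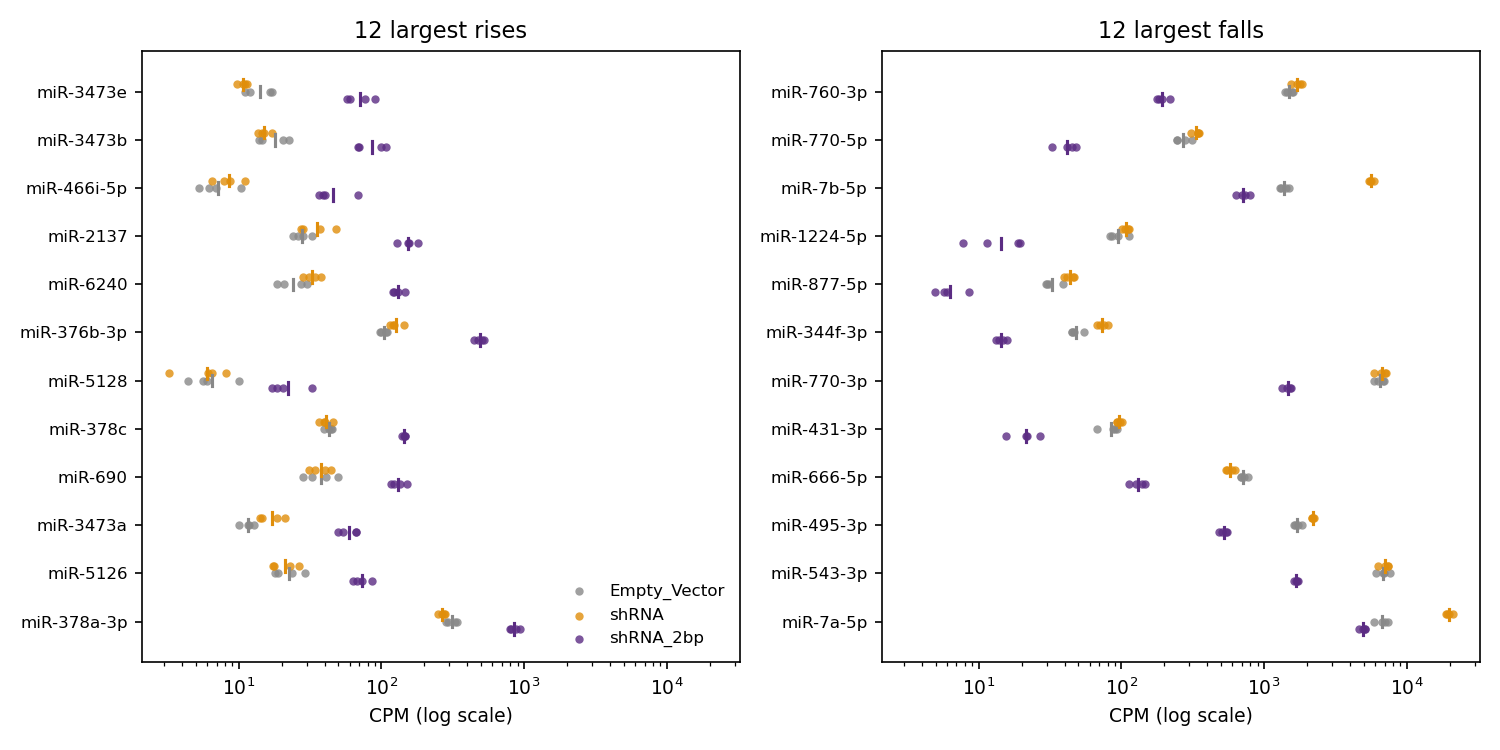
CPM (log axis) of the 12 largest rises (left) and 12 largest falls (right), 1 point per library, with a short bar at the group mean, for the empty vector (grey), shRNA (orange) and shRNA_2bp (purple). In every row the purple points lie apart from the orange ones; for miR-7b-5p and miR-7a-5p the grey points lie between them.

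Among the 10 most abundant miRNAs, 5 rose, 1 fell and 4 did not pass the test. MiR-128-3p, a neuronal miRNA made from introns of R3hdm1 (chr1:128202404-128202424) and Arpp21, was at 352520, 330128, 341891 and 299955 CPM with shRNA and 246574, 226612, 252206 and 237424 CPM with shRNA_2bp. It fell by 0.46 (SE 0.06) on the log2 scale (adjusted p = 4.47e-07). As a share of unscaled counts it was 33.1% ± 1.21 with shRNA and 24.7% ± 0.623 with shRNA_2bp (SD, n = 4; exact two-sided permutation p = 0.0286, adjusted p = 0.0286 over 2 tests). MiR-99a-5p, from an intron of Mir99ahg (chr16:77598940-77598961), moved the other way, from 83309.7, 84796, 80421 and 83984 CPM to 158038, 152431, 160338 and 164549 CPM. It rose 1.91-fold (0.93 ± 0.05, adjusted p = 3.46e-16), and no shRNA_2bp library came near any shRNA library. With the empty vector it was at 94391 ± 4479.8 CPM and with shRNA_5bp at 104708 ± 1294 CPM. The neural miR-9-5p, made from 3 loci, rose from 70727 ± 2600.4 to 95308 ± 1436 CPM (0.43 ± 0.05, adjusted p = 3.95e-09). Smaller rises were those of let-7f-5p (0.23 ± 0.06), let-7g-5p (0.29 ± 0.05) and miR-125b-5p (0.45 ± 0.07).

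Of the abundant miRNAs that did not pass, let-7c-5p was at 51512 ± 5429 CPM with shRNA and 49679 ± 3509 CPM with shRNA_2bp, with a 95% interval of the log2 fold change of -0.20 to 0.10. For let-7i-5p the interval was -0.10 to 0.15, and for miR-26a-5p it was -0.10 to 0.12. Differences larger than these bounds lie outside the intervals, and smaller ones remain possible for these miRNAs. Let-7a-5p did not pass either (log2 fold change 0.11 ± 0.07, adjusted p = 0.18). With replicate number as a block let-7a-5p passed at 0.11 (adjusted p = 0.0327), and with scaling by library total alone it passed at 0.15 (adjusted p = 0.0267).

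Neuron-enriched miRNAs moved in both directions. Of 19 tested of 23 in the table, 3 rose and 7 fell (15.8% and 36.8%, beside 31.1% and 33.5% of all miRNAs), with a median of -0.22. The share that fell was near that of all miRNAs. MiR-128 fell in all 3 tested names. The largest of these changes, that of miR-128-1-5p (-1.86 ± 0.44), rests on few counts (1, 4, 1 and 2 in the shRNA_2bp libraries). MiR-129-5p, from a hairpin at chr2:94241419-94241439 in an intron of Mir670hg and from a further locus, went from 16854, 16303, 17986 and 14677 CPM to 7765, 8132, 9157 and 7655 CPM. It fell by 1.01 (SE 0.07) (adjusted p = 1.46e-13) and was at 10638 ± 494 CPM with the empty vector. MiR-138-5p, a synaptic miRNA, fell from 188 ± 20.7 to 107 ± 10.3 CPM (-0.81 ± 0.10, adjusted p = 2.84e-08). A passenger arm, miR-138-2-3p, also fell (-1.56 ± 0.19). In the other direction, miR-9-3p rose from 4772 ± 287 to 8032 ± 285 CPM (0.75 ± 0.06, adjusted p = 1.00e-12) along with miR-9-5p and miR-124-5p (0.62 ± 0.18). MiR-124-3p, the most widely used neuronal marker among miRNAs, did not pass (-0.11 ± 0.07).

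MiR-132 and miR-212 are induced by neuronal activity through CREB and come from 1 primary transcript on chromosome 11. All 4 of their arms fell (4 of 4 tested, median -1.14). MiR-212-5p (chr11:75173403-75173425) was at 802, 842, 809 and 716 CPM with shRNA and 250.3, 296, 277 and 252 CPM with shRNA_2bp, a fall of 1.55 (SE 0.08) (adjusted p = 2.08e-16). MiR-212-3p fell by 1.64 (SE 0.15) and miR-132-5p by 0.72 (SE 0.06). MiR-132-3p (chr11:75173723-75173744), the arm known to respond to activity, was at 1742, 1794, 1706 and 1620 CPM and 1198, 1316, 1225 and 1103 CPM and fell by 0.50 (SE 0.07) (adjusted p = 2.02e-07). Its shRNA_2bp level was still above that of the empty vector, which was 886 ± 76.8 CPM. For miR-212-5p, at 694 ± 57.4 CPM with the empty vector, it was below.

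The imprinted Dlk1-Dio3 region of chromosome 12 holds a very large miRNA cluster in the mouse, whose miRNAs are expressed from the maternal allele in brain. Of its 112 listed names 81 were tested, and 19 rose and 43 fell, with a median of -0.68 against -0.01, 31.1% risen and 33.5% fallen for all miRNAs. The median was -0.44 without shRNA library 4. Summed over all listed names, the region held 85953 to 91869.6 CPM with shRNA and 66519.6 to 73025 CPM with shRNA_2bp. On the Meg3 side 9 of 12 names were tested and 1 rose and 5 fell (median -1.25). Besides miR-770, miR-673-5p (chr12:109572004-109572025) fell from 190.3 ± 9.07 to 61.7 ± 10.4 CPM (-1.64 ± 0.11, adjusted p = 1.28e-13). A further fall was that of miR-493-5p (-1.25 ± 0.15).

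Among the miRNAs antisense to the retrotransposon-derived gene Rtl1, 10 of 13 names were tested and 1 rose and 5 fell (median -0.24), with 2 rises under each of the other scalings. MiR-433-3p (chr12:109591781-109591802) was at 2755, 2916, 2974 and 2788 CPM with shRNA and 727, 808, 793 and 750.3 CPM with shRNA_2bp. It fell by 1.89 (SE 0.06) (adjusted p = 8.91e-21), the largest fall of this group after miR-431-3p, which went from 96.2 ± 3.73 to 21.5 ± 4.65 CPM (-2.17 ± 0.15). MiR-431-5p fell as well (-1.26 ± 0.10). The abundant miR-127-3p (chr12:109592888-109592909) differed less, at 14903, 16233, 16244 and 16123 CPM and 12152, 13726, 13552 and 11945 CPM (-0.31 ± 0.06, adjusted p = 9.78e-05), and its neighbour miR-434-3p rose (0.26 ± 0.06). Hairpins a few kilobases apart thus differed in size and direction of change.

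In the noncoding gene Rian 5 of 7 names were tested and 1 rose and 4 fell. MiR-370-3p (chr12:109618305-109618326) fell from 11536 ± 340 to 6728 ± 393 CPM (-0.78 ± 0.05, adjusted p = 1.59e-13), and was at 18758 ± 1035 CPM with the empty vector. The rise in this group was miR-341-5p (2.02 ± 0.33), which at 1.81 ± 0.373 CPM with shRNA and 7.64 ± 1.93 CPM with shRNA_2bp did not enter the fit restricted to means of at least 10 CPM. The opposite arm of the same hairpin, miR-341-3p, fell from 281 ± 21.2 to 175 ± 13.5 CPM (-0.68 ± 0.08).

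The Mirg part, a run of hairpins that starts about 145 kb downstream, had both directions. Of 80 names 57 were tested and 16 rose and 29 fell (median -0.43). There were 10 rises without shRNA_2bp library 3. The median was -0.95 with no filter on low counts and at means of at least 10 CPM. The 16 rises, and the 19 of the whole region, include both arms of miR-299a and of miR-299b. These have identical counts, so the same measurements are counted under both names. MiR-543-3p (chr12:109717304-109717325) was at 7367, 7041, 7368 and 6251 CPM with shRNA and 1711, 1674, 1738 and 1620.1 CPM with shRNA_2bp, a fall of 2.06 (SE 0.07) (adjusted p = 5.64e-21). MiR-495-3p (chr12:109718795-109718816) was at 2206, 2243, 2152 and 2183 CPM and 484, 554, 545 and 511 CPM, a fall of 2.07 (SE 0.07) (adjusted p = 4.81e-20). MiR-666-5p fell from 579 ± 36.5 to 132 ± 14.2 CPM (-2.13 ± 0.08). For all 3 the shRNA, shRNA_5bp and empty-vector levels were each at least 2-fold above the shRNA_2bp level.

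The miR-376 hairpins lie side by side within the Mirg part, and their primary transcripts are known substrates of adenosine-to-inosine editing in the seed. All 6 of their arms in the table were tested, and 4 rose and 1 fell (median 0.49). Beside miR-376b-3p, miR-376c-5p rose (1.66 ± 0.46), from 1.7 ± 1.01 to 5.46 ± 2.83 CPM, and miR-376b-5p rose less (0.47 ± 0.11). MiR-376a-5p fell from 19.6 ± 1.63 to 9.69 ± 3.04 CPM (-0.97 ± 0.21, adjusted p = 2.41e-04). MiR-376a-3p, with -1.02 ± 0.62, did not pass. MiR-376c-3p passed (0.51 ± 0.20, adjusted p = 0.0303) with overlapping groups, and no longer passed in 5 of the 8 fits that leave out 1 library (adjusted p up to 0.199) or with no filter (adjusted p = 0.189). As printed above, miR-376a-3p and miR-376b-3p differ within the seed, and edited reads of these hairpins were not analysed here.

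**Figure D3:**
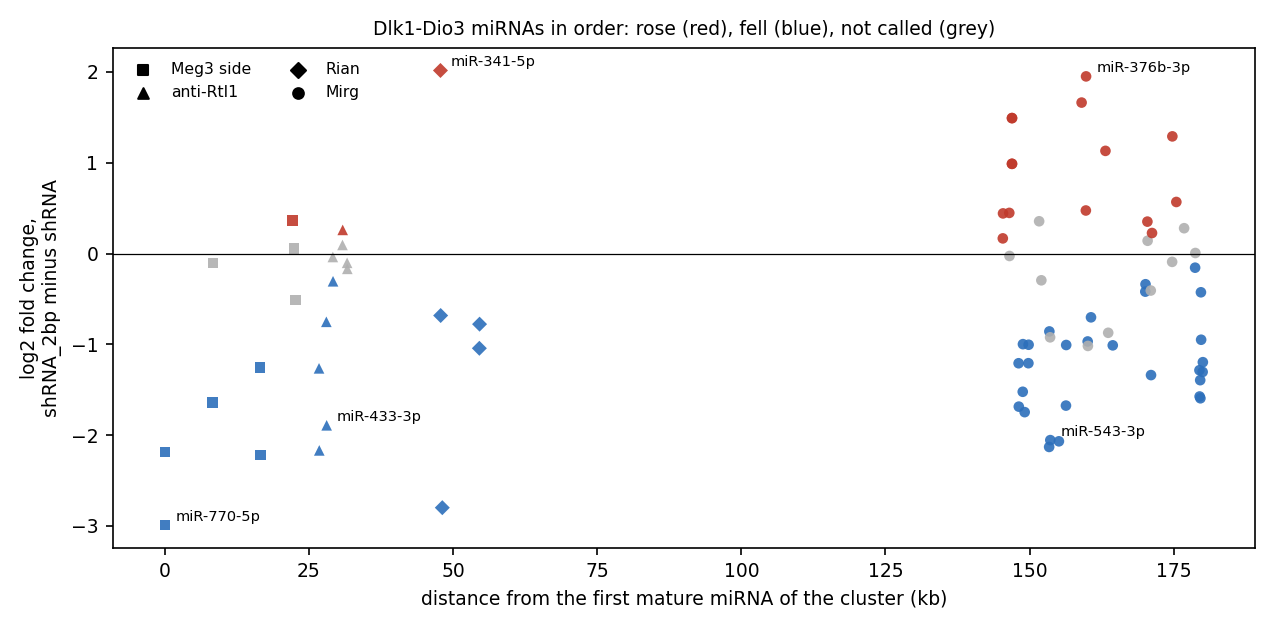
Log2 fold change, shRNA_2bp minus shRNA, of Dlk1-Dio3 miRNAs by distance in kb from the first mature miRNA of the cluster, with 1 symbol per part; red rose, blue fell, grey not called. Blue points outnumber red ones in each part, and the red points of the Mirg part, led by miR-376b-3p, stand among blue ones; 3 tested Mirg names without a position are not drawn.

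All tested names in a list of miRNAs that skip the Microprocessor fell. This list holds mirtrons (miR-877, miR-1224 and miR-1981), which are spliced out as short introns, and other miRNAs described as not needing Drosha or DGCR8 (miR-320, miR-484 and miR-1839). Of 13 listed names 9 were tested, and 9 of 9 fell, with a median of -1.49 and a range of -2.88 to -0.49. Both arms of miR-877, miR-1981 and miR-1839 are among the 9, and arms of the same precursor are not independent of each other. The count of falls was 9 or 10 in every alternative fit. Summed over all listed names they held 2334 to 2563 CPM with shRNA and 1073 to 1282 CPM with shRNA_2bp. MiR-1224-5p, from an intron of Vwa5b2 (chr16:20604452-20604472), was at 113, 106, 112 and 101 CPM with shRNA and 11.4, 19, 7.81 and 19.6 CPM with shRNA_2bp, and fell 7.35-fold (-2.88 ± 0.17, adjusted p = 9.20e-15). MiR-877-5p, from an intron of Abcf1 (chr17:35960795-35960814), was at 46.3, 41.7, 45.7 and 39.8 CPM and 5.99, 4.98, 8.52 and 5.73 CPM (-2.81 ± 0.20, adjusted p = 7.29e-13). None of these libraries overlapped between the groups. The opposite arm miR-877-3p fell by 1.70 (SE 0.21) and miR-1981-3p by 1.58 (SE 0.28). The capped miR-320-3p fell by 0.49 (SE 0.09) and miR-484 by 0.93 (SE 0.11). With the empty vector miR-877-5p was at 32.6 ± 4.32 CPM and miR-1224-5p at 94.1 ± 13.5 CPM, and with shRNA_5bp they were at 17.8 ± 4.54 and 66.7 ± 5.2 CPM.

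Several families in which all or nearly all changes went up stood at moderate fold changes. In the miR-30 family 11 of 12 names were tested and 9 rose and 1 fell (median 0.33). MiR-30e-3p, from an intron of Nfyc (chr4:120772618-120772639), was at 749, 725, 685 and 698 CPM with shRNA and 1812, 1784, 1864 and 1764 CPM with shRNA_2bp. It rose 2.53-fold (1.34 ± 0.06, adjusted p = 5.15e-18), and every shRNA_2bp library was above every shRNA library. Its neighbour miR-30c-1-3p rose less surely (0.87 ± 0.24, adjusted p = 0.00229). The fall was miR-30d-5p (-0.14 ± 0.05), which did not pass with library-total scaling or DESeq2 size factors.

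In the miR-181 family 8 of 10 names were tested and 6 rose and 0 fell (median 0.52), with 1 fall when no filter was used. The passenger arm miR-181a-1-3p (chr1:137966508-137966529) rose from 68.9 ± 8.53 to 189 ± 7.91 CPM (1.46 ± 0.11, adjusted p = 1.75e-12). The abundant guide miR-181a-5p rose less, from 12244 ± 991 to 15379 ± 1186 CPM (0.33 ± 0.06), and was at 7292 ± 638 CPM with the empty vector. MiR-181a-2-3p (0.94 ± 0.16) and miR-181c-3p (0.71 ± 0.13) rose too. The families of miR-99, miR-100 and miR-125 had 9 of 11 names tested, of which 5 rose and 1 fell (median 0.18). The 3 miRNAs of the seed shown above rose by 0.93 (miR-99a-5p), 0.52 (miR-100-5p) and 0.18 (miR-99b-5p), and miR-99b-3p fell (-0.33 ± 0.09).

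The miR-34 family, whose main members are targets of p53, had 5 of 11 names tested with miR-449, all of miR-34, and 5 rose and 0 fell (median 0.66). MiR-34b-3p was the clearest, from 24.5 ± 4.3 to 45.9 ± 3.73 CPM (0.90 ± 0.16, adjusted p = 1.34e-05). The count went to 3 with no filter, at means of at least 10 CPM, and without shRNA library 1, shRNA library 3 or shRNA_2bp library 4. MiR-34c-5p overlapped between the groups, with 33.2, 37.7, 31.2 and 49.3 CPM and 50.9, 40.7, 63.9 and 75.3 CPM, and had an adjusted p of 0.054 without shRNA_2bp library 4. MiR-34a-5p had an adjusted p of 0.0178. It did not pass with no filter (0.175), nor without shRNA library 1 (0.0783), shRNA library 3 (0.0533) or shRNA_2bp library 3 (0.061).

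In the miR-17-92 cluster and its paralogs, linked to proliferation, 11 of 28 names were tested and 5 rose and 0 fell (median 0.23), with 2 rises when no filter was used and 3 at means of at least 10 CPM. MiR-25-3p, within Mcm7 (chr5:138165332-138165353), rose from 444, 404, 356 and 388 CPM to 848, 767, 703 and 779.8 CPM (0.96 ± 0.08, adjusted p = 1.22e-11), without overlap. Of the 5 tested miRNAs with its seed, AUUGCAC, 4 rose. MiR-92a-3p rose less (0.42 ± 0.08), and the adjusted p of miR-19b-3p and miR-20a-5p were 0.0659 and 0.0902 with no filter.

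Let-7 and miR-98, which rise as cells differentiate, showed no common direction. Of 23 names 19 were tested, 6 rose and 3 fell (31.6% and 15.8%, beside 31.1% and 33.5% of all miRNAs), and the median was 0.11. The share that rose was near that of all miRNAs. MiR-98-5p, within Huwe1 (chrX:151913229-151913250), fell from 1751 ± 102 to 1146 ± 51.1 CPM (-0.61 ± 0.06, adjusted p = 1.52e-09). The passenger arms let-7b-3p (0.70 ± 0.14) and let-7a-1-3p (0.51 ± 0.11, with counts identical to let-7c-2-3p) rose, as did let-7j (0.59 ± 0.06). Grouped by seed, the 10 tested miRNAs with GAGGUAG had 2 rises and 3 falls. Of the 4 passenger arms with UAUACAA 3 rose and none fell. The rises of let-7a-1-3p and let-7c-2-3p are the same measurement under both names, here and in the 6 rises of the list.

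The miR-29 family, which increases as neurons mature, stood lower with shRNA_2bp. Of 7 names 4 were tested and 0 rose and 3 fell (median -1.32). MiR-29a-3p (chr6:31062673-31062694) was at 556, 721, 636 and 662 CPM with shRNA and 266, 353, 321 and 348 CPM with shRNA_2bp, a fall of 1.00 (SE 0.09) (adjusted p = 1.42e-10). The count was 1 in the fit to these 8 libraries alone and at means of at least 10 CPM. MiR-29b-3p, at 11.4, 11.6, 10.7 and 30.3 CPM and 8.98, 6.33, 0.71 and 3.27 CPM, had an adjusted p of 0.00966, or 0.0585 in the fit to 8 libraries, and its shRNA library 4 stood far above the rest. Without that library the median of the family was -1.05.

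Other lists were smaller or mixed. None of the 3 tested names of the miR-26 family (of 5) passed, with a median of 0.03 that was -0.02 without shRNA library 3. In the clusters of miR-23, miR-27 and miR-24, 9 of 11 names were tested and 2 rose and 1 fell. The fall was miR-24-3p, from 1692 ± 118 to 963 ± 11.4 CPM (-0.81 ± 0.06, adjusted p = 2.17e-13), while its cluster neighbour miR-27b-3p rose (0.34 ± 0.06). The rise of miR-27a-3p (adjusted p = 0.0408) did not pass in 7 of the 8 fits that leave out 1 library (adjusted p up to 0.138), which left 1 rise in 6 of those fits. In the brain-enriched miR-344 family 8 of 19 names were tested and 1 rose and 6 fell (median -0.60), with the rise that of miR-344d-3-5p (0.96 ± 0.18). Of 80 names of the rodent Sfmbt2 cluster 5 were tested, and 1 of them, miR-466i-5p, rose.

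**Figure D4:**
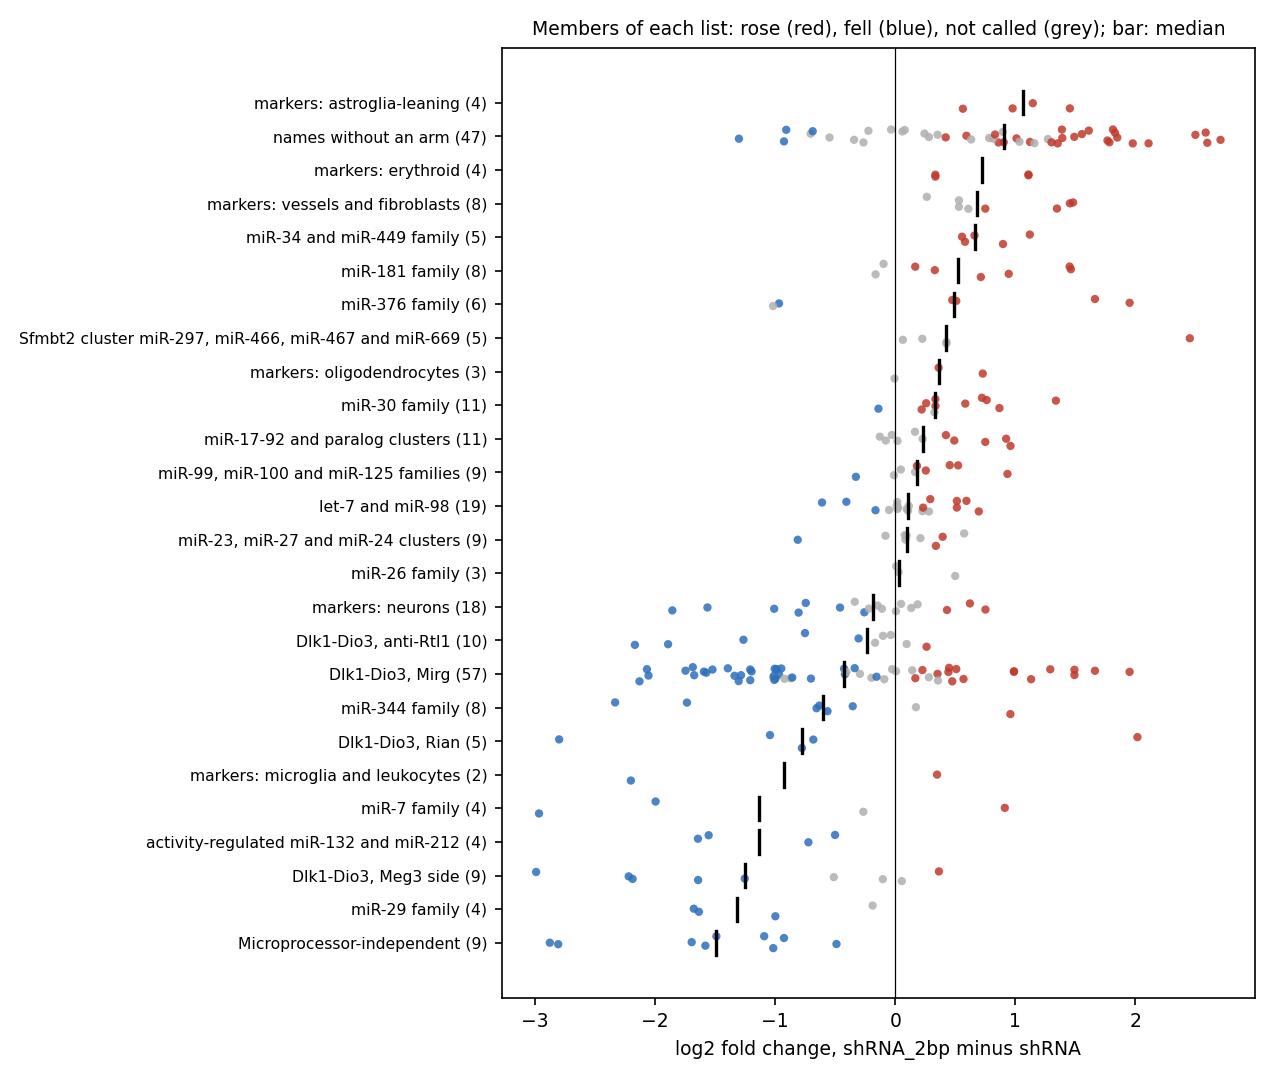
Log2 fold change, shRNA_2bp minus shRNA, of every tested member of each list, with the number tested in brackets, 1 point per miRNA in red (rose), blue (fell) or grey (not called), and a black bar at the median. The Microprocessor-independent miRNAs all lie left of 0, the miR-34 family and the astroglia-leaning markers right of it, and the Mirg and let-7 lists spread to both sides.

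Neighbouring hairpins moved in 1 direction in some clusters and in both directions in others. Of 37 groups of 2 or more tested hairpins on the same strand with gaps of at most 10 kb, 24 had all their changed members in 1 direction, 12 had both directions and 1 had none that changed. The 24 include groups with only 1 changed member, such as miR-15b with miR-16 on chromosome 3, which can show only 1 direction. Some names with several loci, such as miR-29b-3p, count in 2 groups. The 24 is therefore no measure of how often neighbours moved together. The cluster of miR-182, miR-96 and miR-183 on chromosome 6 fell in all 3 members (median -1.43), and the pair miR-130b and miR-301b on chromosome 16 rose in 3 of 3 (median 0.97). Members of a cluster can share a primary transcript, so they are not independent of each other.

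The ratio of the 2 arms of a hairpin does not depend on how libraries are scaled. Arms were paired by name, and each such pair is called a hairpin here. Names with several loci, such as miR-9, mix precursors in their ratio. The 5p counts of miR-1843b are nearly those of miR-1843a, so its ratio is not that of 1 precursor either. Of 119 hairpins with both arms tested, 43 (36.1%) shifted in the log2 ratio of 5p to 3p (limma, adjusted p below 0.05), 18 towards the 5p arm and 25 towards the 3p arm. These counts hold 2 measurements under a pair of names each, since miR-486a and miR-486b (towards 3p) have identical counts, as have miR-299a and miR-299b (no shift, both arms rose). Both arms rose in 20 hairpins, both fell in 32 and the arms changed in opposite directions in 6, which were let-7b, miR-30d, miR-335, miR-341, miR-708 and miR-99b. MiR-335, from an intron of the imprinted gene Mest (5p arm at chr6:30741314-30741336), had a log2 ratio of -3.82 ± 0.26 with shRNA and -2.37 ± 0.10 with shRNA_2bp (SD, n = 4). Its 5p arm was at 53.8, 57, 62.5 and 77.7 CPM with shRNA and 105, 111, 110 and 128 CPM with shRNA_2bp and rose (0.85 ± 0.13). Its 3p arm was at 903, 856, 922 and 855 CPM and 568, 557, 615 and 613 CPM and fell (-0.59 ± 0.06), so that the ratio shifted by 1.45 ± 0.16 (adjusted p = 8.56e-07). In miR-708, from an intron of Tenm4, the 5p arm fell (-0.78 ± 0.11) and the more abundant 3p arm rose (0.57 ± 0.05), a shift of -1.36 ± 0.13 (adjusted p = 3.90e-07).

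Among hairpins with both arms at means of at least 10 CPM, the other largest shifts came from arms that moved by unequal amounts. Towards the 5p arm these were miR-1298 (1.11 ± 0.30), miR-431 (0.89 ± 0.21), miR-222 (0.88 ± 0.19) and miR-221 (0.76 ± 0.17). In miR-222, for which the 3p arm holds most counts, the 3p arm fell by 1.55 (SE 0.07) and the 5p arm by 0.68 (SE 0.21). Towards the 3p arm they were miR-673 (-1.54 ± 0.17), miR-376b (-1.48 ± 0.13), miR-877 (-1.03 ± 0.32) and miR-296 (-1.02 ± 0.16). For miR-376b the 3p arm rose by 1.95 and the 5p arm by 0.47, which moved its log2 ratio from -1.08 ± 0.17 to -2.56 ± 0.17 (adjusted p = 1.23e-07). The shift of miR-877 overlapped between the groups (adjusted p = 0.0159) and did not pass without shRNA_2bp library 2 (adjusted p = 0.0598). Shifts of similar or larger size in which one arm was below 10 CPM included those of miR-341 (2.48 ± 0.23), miR-433 (1.18 ± 0.21) and miR-29c (1.16 ± 0.43) towards 5p. Towards 3p they included miR-298 (-1.90 ± 0.40), miR-154 (-1.28 ± 0.27), miR-666 (-1.20 ± 0.24) and miR-146b (-1.02 ± 0.22). These shifts rest on few counts of the weaker arm.

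**Figure D5:**
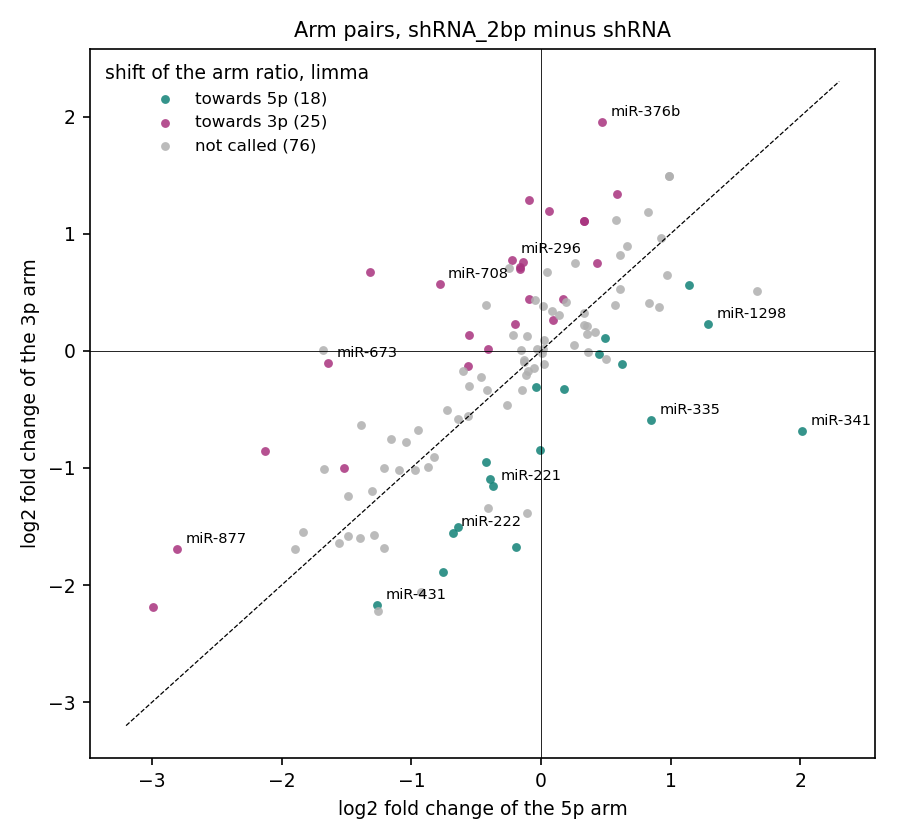
Log2 fold change of the 5p arm (horizontal) and of the 3p arm (vertical), shRNA_2bp minus shRNA, for 119 hairpins, with equal change of both arms on the dashed line; green marks the 18 that shifted towards 5p, magenta the 25 towards 3p and grey the 76 others. Most hairpins lie along the dashed line, and miR-341, miR-335 and miR-708 lie in the quadrants where the arms changed in opposite directions.

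Names without an arm suffix, which miRBase uses for precursors with 1 recorded mature product, were mostly higher with shRNA_2bp. This group was formed after the values were seen. Of 323 such names 47 were tested, and 25 rose and 4 fell (median 0.90), beside 61 rises and 74 falls of 207 named 5p arms and 64 rises and 84 falls of 229 named 3p arms. The rises include miR-3473a, b and e, miR-2137, miR-6240, miR-690, miR-5126, miR-5128 and miR-378b, c and d. Among the 47, miR-28c and miR-101c have nearly the counts of the named arms miR-28a-5p and miR-101a-3p, so the classes are not fully separate. The counts of rises were 22 to 27 in the alternative fits, and the median was 1.27 at means of at least 10 CPM and 0 with no filter. Summed over all such names they held 3046 to 3307 CPM with shRNA and 5236 to 5757 CPM with shRNA_2bp, a small part of all counts. MiR-5099, which is not named above, had the most counts of them in every library of both groups and weighs most in these sums. Its raw counts were 7046, 4395, 4115 and 4821 with shRNA and 3712, 4023, 2953 and 2808 in the shallower shRNA_2bp libraries. The sums thus do not stand for the low-level names listed above.

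Base composition of the mature miRNA moved with the change. A RefSeq sequence was found for 427 of the 483 tested miRNAs. Of 66 miRNAs with under 40% G and C, 28 rose and 17 fell (median 0.26), and of 83 with 60% or more, 20 rose and 38 fell (median -0.45). The Spearman correlation of GC percent with log2 fold change across these 427 miRNAs, which share libraries and are not independent, was -0.19. It was -0.15 across the 311 with means of at least 10 CPM and -0.27 across the 154 with means of at least 100 CPM. The part of base composition in the results above was not tested.

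Markers of other cell types moved with the groups. The labels call the cultures neuronal, and the neuronal markers miR-9, miR-124, miR-128, miR-129, miR-137, miR-138, miR-153 and miR-218 were all detected, with summed levels of 425776 to 445190 CPM with shRNA and 366486 to 378909 CPM with shRNA_2bp. Of these 22 names 18 were tested, and 3 rose and 7 fell. Most of the neuronal sum is miR-128-3p, at 33.1% of unscaled counts with shRNA and 24.7% with shRNA_2bp. The abundant miR-9-5p rose, so the lower sum does not stand for the neuronal markers as a group. Astroglia-leaning markers rose in 4 of 4 tested of 8 names, with summed levels of 2062 to 2402 CPM with shRNA and 3756 to 4073 CPM with shRNA_2bp. Among them miR-21a-5p, a miRNA associated with glia and injury, was at 900.4, 853, 929 and 949 CPM with shRNA and 1741, 1577, 1849 and 1988 CPM with shRNA_2bp (0.98 ± 0.07, adjusted p = 4.62e-13), without overlap. MiR-22-5p (1.15 ± 0.08), miR-22-3p (0.56 ± 0.06) and miR-143-3p (1.45 ± 0.43) rose too, and miR-449a-3p had no count in these 8 libraries.

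Markers of vessels and fibroblasts had 8 of 18 names tested, of which 4 rose and 0 fell (50% and 0%, beside 31.1% and 33.5% of all miRNAs), with summed levels of 676 to 824 CPM with shRNA and 1254 to 1494 CPM with shRNA_2bp. The endothelial miR-126a-3p, in Egfl7 (chr2:26591402-26591423), rose from 675 ± 36.5 to 1134 ± 62 CPM (0.75 ± 0.06, adjusted p = 1.87e-11), and miR-10a-5p rose from 13.3 ± 0.828 to 37.3 ± 4.99 CPM. One of these rises, miR-143-3p, is also in the astroglia-leaning list and was counted there too. MiR-10b-3p and both arms of miR-126b had no count. Oligodendrocyte markers had 3 of 7 names tested, of which 2 rose and 0 fell, with summed levels of 125 to 141 CPM with shRNA and 166 to 201 CPM with shRNA_2bp. MiR-219b-3p was at 0, and miR-338-3p did not pass (-0.01 ± 0.29).

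Markers of microglia and leukocytes were low, and several had no count. Of 10 names 2 were tested, the sum over the 10 was 75.4 to 106 CPM with shRNA and 88.8 to 110.1 CPM with shRNA_2bp, and miR-142a-3p, miR-146a-3p, miR-150-3p and both arms of miR-223 had no count in the 8 libraries. MiR-146a-5p rose (0.35 ± 0.13, adjusted p = 0.0184) and did not pass with no filter or without shRNA library 1, shRNA library 3 or shRNA_2bp library 2 (adjusted p of 0.064 to 0.121). MiR-155-5p, induced in inflammation, fell from 15 ± 2.65 to 3.21 ± 1.86 CPM (-2.20 ± 0.34, adjusted p = 2.29e-06). Of 7 erythroid names 4 were tested and rose, all of them arms of miR-486a or miR-486b, 2 precursors that cannot be told apart by these counts, with summed levels over the 7 names of 364 to 393 CPM with shRNA and 483 to 519 CPM with shRNA_2bp. Both arms of miR-144 had no count. The part of glial and vascular miRNAs in the differences above was not tested.

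A few miRNAs under 10 CPM, singled out after their values were seen, had larger fold changes than those named above. MiR-6945-3p had 44, 25, 35 and 22 counts in the shRNA libraries and none in the 4 shRNA_2bp libraries. Against a floor of 3 counts over the group it was at least 10.5-fold lower with shRNA_2bp. MiR-7080-5p fell from 10.9 ± 0.649 to 0.581 ± 0.703 CPM (-4.09 ± 0.44) and miR-3085-3p from 17 ± 3.37 to 1.67 ± 0.882 CPM (-3.30 ± 0.32, adjusted p = 2.77e-10). At the lower depth of the shRNA_2bp libraries such values rest on few counts.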

How the data were processed

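Small RNA libraries were made from 100 ng of total RNA with 15 cycles of PCR and size selection, per the labels' protocols. The deposited table holds raw counts per mature miRNA made by the authors, with no molecular identifiers. The submitters' processing notes name bcl2fastq 2.20.0.422, Trim Galore 0.6.0, cutadapt 1.15, Bowtie 1.1.1, edgeR and the build GRCm38.p6, without their roles. How reads matching several miRNAs were counted is not given in the sources used here, and 14 tested names form 7 sets with identical counts. Further pairs differ by only a few counts, among them miR-28a-5p with miR-28c and miR-374b-5p with miR-374c-5p. Such pairs are nearly the same measurement under both names. All 16 libraries were fitted together in edgeR 4.0.16 (R 4.3.3) with TMM scaling, its own filter on low counts, a robust quasi-likelihood test, 12 residual degrees of freedom and Benjamini-Hochberg adjustment over 483 miRNAs. Intervals of fold changes have nominal 95% coverage. Totals and the miR-128-3p share were compared by exact permutation. Arm ratios used limma 3.58.1 on log2 CPM (prior count 2). On simulated counts for this comparison (483 miRNAs, 200 changed), the fit recovered 90% of 2-fold and 99% of 4-fold changes. Of its calls there, 2.6% were false. The simulation used the spread estimated by this fit, as many rises as falls and independent libraries, so these shares hold for that setting only.

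Named are the 12 largest rises and falls with adjusted p below 0.05, a mean of at least 10 CPM over the 8 libraries and no overlap between groups. Also named are the 10 most abundant miRNAs, up to 4 changed members of each list at 10 CPM or more (or its 2 most abundant), and the 5 largest arm shifts in each direction among those with both arms at 10 CPM or more. The members, lists and rules were chosen with earlier results of these data known. Sequences and positions are from RefSeq on GRCm38.p6 (427 of 483 matched) and host genes from GENCODE M21. Same-numbered libraries of the 2 groups deviated together from their group means over 360 miRNAs (correlations of 0.166 to 0.198, all above 0.1), so a fit with replicate number as a block was run. Other alternatives were library-total and DESeq2 scaling, the DESeq2 1.42.0 Wald test, no filter, a minimum mean of 10 CPM, these 8 libraries alone, and leaving out each library.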

Additional observations from a re-analysis of the deposited data

Results flagged for a closer look

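In 10 of 194 groups of 4 libraries examined, 1 library stood apart: its gap to the nearest other, divided by the range of the group, was above Dixon's 95% critical value for 4 libraries. Chance gives about 1 in 20 such groups, and 10 of 194 is close to that. In the shRNA group miR-29b-3p was at 30.3 CPM in library 4 against 10.7 to 11.6 in the others, and miR-92a-3p at 280.7 against 265 to 268. MiR-770-5p was at 306 CPM in library 4 against 343 to 348. MiR-27a-3p was at 298 CPM and miR-376b-5p at 52.8 CPM in library 2, against 324 to 327 and 60.6 to 61.8. MiR-30c-2-3p was at 51.0 CPM in library 3 against 59.0 to 60.5, and miR-127-3p at 14903 CPM in library 1 against 16123 to 16244. In the shRNA_2bp group, library 2 stood apart for miR-466i-5p (68.8 CPM against 36.8 to 40.1), miR-344c-3p (25.8 against 14.7 to 15.6) and miR-338-5p (165 against 139 to 142). None of these libraries, when left out, changed the direction of its miRNA.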

How the results depend on the processing

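The main counts were 150 rises and 162 falls. With the replicate block the paired fit gave 154 and 165, and apart from let-7a-5p it changed the call of no named miRNA. Library-total scaling gave 156 and 152 with a median over all miRNAs of 0.03 in place of -0.01. The DESeq2 size factors gave 157 and 153, the DESeq2 Wald test 155 and 153, the 8 libraries alone 153 and 158, and means of at least 10 CPM 124 and 130 of 361 tested. With no filter on low counts 130 rose and 201 fell of 1367 tested, with a median of -0.18. Leaving out 1 library at a time gave 131 to 144 rises and 154 to 164 falls. Over the alternatives run, no named arm shift changed direction, and no named miRNA that passed in the main or the alternative fit did so. Signs of values that passed in neither were not compared, and the miR-26 median went from 0.03 to -0.02 without shRNA library 3. Of the values in the alternatives, 27 for single miRNAs and 1 for an arm shift lost the threshold and 3 gained it. Among the gains was miR-221-5p without shRNA_2bp library 1 (log2 fold change -0.52, adjusted p = 0.0347). With no filter, list medians moved to 0.02 for let-7 and miR-98, 0.04 for the miR-17-92 clusters, 0.42 for miR-26 and -0.98 for miR-344. Depth limits the shRNA_2bp side most, the shallower group, and the floor of 3 counts covers counting error only.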
